A study of Mus musculus with 36 samples.

Results

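Accessible chromatin was followed at 5 genes that decide how a stimulated myeloid cell uses arginine and makes itaconate: Nos2, Ass1, Arg1, Arg2 and Acod1 (also called Irg1). A region counted as a member when its deposited peak overlapped the body of one of these genes or the 20 kb on either side. The rule used position alone and no measured value. It took 58 of the 119751 peaks in the series, 22 at Nos2, 9 at Arg1, 8 at Arg2, 14 at Acod1 and 5 at Ass1. All 58 passed the filter on low counts, which left 119464 peaks for testing. Peaks are named here by the distance of their middle from the lower-coordinate end of the gene, in kb, because the gene table used gives no strand. On the mm10 build, Nos2 lies on chromosome 11 from 78920787 to 78960226, Arg1 on chromosome 10 from 24915207 to 24927470 and Arg2 on chromosome 12 from 79130788 to 79156301. Acod1 lies on chromosome 14 from 103047012 to 103056573, and Ass1 on chromosome 2 from 31470270 to 31520670.

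ATAC-seq, which marks open chromatin by where a transposase can insert sequencing adapters, was run on dendritic cells grown from the bone marrow of female C57BL/6 mice, 6 to 8 weeks old, in medium with the growth factor GM-CSF. Cells were left unstimulated (Ctrl) or kept for 6 h with stimuli that innate immune sensors detect, and each of the 18 groups has 2 libraries. There are 6 single ligands. P stands for PAM and L for LPS, H for HMW and S for SeV, as labelled, cG for 3',3'-cGAMP and Z for Zymosan depleted. LPS is the bacterial cell wall component sensed by TLR4, 3',3'-cGAMP is a cyclic dinucleotide that activates STING, and zymosan is a preparation of yeast cell wall. The 8 pairs are PL, PH, LH, PS, PcG, ScG, ZS and ZcG, and the 3 triplets are PLH, PScG and ZScG, each name joining the letters of its ligands. All cells share the strain and the GM-CSF culture, and all stimulated groups the 6 h time. The labels do not say whether the 2 libraries of a group came from separate mice or cultures, so p-values measure the spread between these libraries, which may be technical.

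Arginine is contested between enzymes in myeloid cells. Inducible nitric oxide synthase, the product of Nos2, turns it into nitric oxide and citrulline, and argininosuccinate synthase (Ass1) starts the route that rebuilds arginine from citrulline. Arginase 1 (Arg1, in the cytosol) and arginase 2 (Arg2, in mitochondria) split the same arginine into ornithine and urea. Acod1 encodes the enzyme that makes itaconate from the citric acid cycle intermediate cis-aconitate. Nos2 and Acod1 are textbook targets of microbial stimulation in macrophages and dendritic cells, whereas Arg1 is best known as a marker of alternatively activated macrophages.

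RefSeq promoter sequences (build GRCm38.p6) were matched for 2 of the 5 genes, Acod1 and Ass1, and are shown because both lie inside start peaks with different behaviour: the Acod1 start peak opened under every stimulation and the Ass1 start peak under few. Each run holds the 250 bases before the annotated start, on the plus strand, from chr14:103046762-103047011 for Acod1 and from chr2:31470020-31470269 for Ass1. Capitals mark the TATA motif.
Acod1: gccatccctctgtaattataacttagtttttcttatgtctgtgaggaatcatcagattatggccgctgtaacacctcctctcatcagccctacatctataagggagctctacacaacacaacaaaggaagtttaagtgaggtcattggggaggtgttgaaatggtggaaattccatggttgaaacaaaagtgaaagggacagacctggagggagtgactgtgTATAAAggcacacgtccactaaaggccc
Ass1: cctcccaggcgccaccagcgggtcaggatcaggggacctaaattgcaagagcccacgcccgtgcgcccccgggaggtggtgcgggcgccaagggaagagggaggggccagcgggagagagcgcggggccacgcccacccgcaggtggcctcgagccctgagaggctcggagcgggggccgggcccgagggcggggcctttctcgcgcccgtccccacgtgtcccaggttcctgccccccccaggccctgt
The Acod1 run is 44.4% G and C and the Ass1 run 75.6%, against a median of 52.4% over 32851 promoters of the same length. TATAAA, searched on both strands, lies in the Acod1 run at -28 to -23 from the start, and 12.4% of the promoters hold it. Neither run holds the other 6 motifs searched on both strands, which are kB (in 1.41% of promoters), ISRE (2.98%), AP-1 (TGANTCA, 6.75%), C/EBP (TTGCNNAA, 9.56%), GAS (TTCNNNGAA, 7.02%) and PU.1 (GAGGAAGT, 2.44%). For kB and for ISRE only a narrow fixed pattern was searched. Other forms of these sites were not searched and may be present in either run. No match says only that the patterns searched are not in these windows.

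Total counts were 19097027 to 39977088 per library, and 8181254 to 21985891 without the peak over the mitochondrial genome, which was left out. That peak held 58.3% to 63.0% of counts on average in Ctrl, Z, ZcG, ScG and ZScG and 44.4% to 54.5% in the other 13 groups, so the control stands with the former and its part in the contrasts was not tested beyond fits within each set. Libraries of a group correlated at r = 0.901 to 0.958 over peaks. Start peaks were found for 10 of 10 dendritic cell markers (summed level 200 to 282 CPM per library) and for 7 of 7 macrophage or monocyte markers (153 to 211 CPM, highest on average in Ctrl), so the labelled cell type could not be separated from macrophages by these lists. They were found for 2 of 6 neutrophil markers (at most 51.9 CPM), and for 1 of 5 T cell, 1 of 4 B cell and 1 of 3 erythroid markers. Cells are measured in bulk here, so fewer cells of a type and less open chromatin per cell cannot be told apart.

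The 5 loci opened more often than they closed, and they did so unequally. Of the 58 peaks, 46 were called in at least 1 of the 17 stimulations against control (edgeR quasi-likelihood test, Benjamini-Hochberg adjusted p under 0.05 over all tested peaks): 36 only higher, 9 only lower and 1 in both directions. Nos2 had 21 of 22 peaks called higher in some stimulation and 0 lower. Acod1 had 6 higher and 4 lower of 14, Ass1 had 4 of 5 higher, and Arg2 had 3 of 8 higher. Arg1 ran the other way, with 5 of 9 peaks only lower, 2 only higher and 1 in both directions. Among all tested peaks, 35.0% were higher in some stimulation, 34.1% were lower in some, and 33.4% were never called. The 17 contrasts share the same 2 control libraries.

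By stimulation, PL had the most members called higher, 30 of 58, with 7 lower, where 13.8% of all tested peaks were higher and 13.5% lower. LPS alone had 26 higher and 2 lower (background 11.2% and 11.1%). SeV had 16 higher and 6 lower (14.1% and 13.8%), 3',3'-cGAMP 16 and 5 (11.6% and 11.6%), and HMW 11 and 5 (5.21% and 5.46%). PAM had 11 higher and 1 lower (11.1% and 9.45%), and depleted zymosan 6 and 0 (4.16% and 1.75%). Among the other pairs, ZS had 28 higher and 6 lower (14.4% and 14.0%), PcG 25 and 7 (16.8% and 16.2%), PS 23 and 7 (17.3% and 16.2%) and ScG 23 and 6 (14.4% and 13.3%). LH had 22 and 1 (11.3% and 10.5%), PH 21 and 3 (13.6% and 12.8%) and ZcG 17 and 5 (11.4% and 10.2%). The triplets had 29 and 7 for PLH (14.9% and 14.7%), 28 and 7 for PScG (19.0% and 18.1%) and 24 and 9 for ZScG (16.2% and 16.1%). The members' share was above the background upward in each of these stimulations and at or below it downward, with HMW the exception at 8.62% of members lower.

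**Figure D1:**
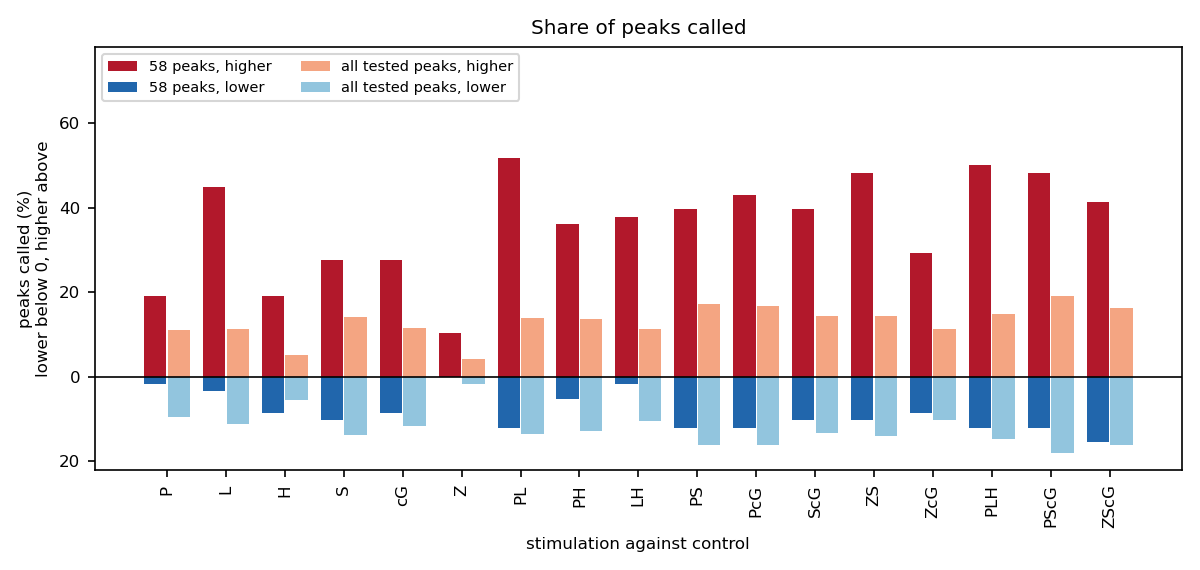
Share of the 58 peaks and of all 119464 tested peaks called in each stimulation against control, in percent, with peaks called higher drawn upward and those called lower drawn downward. The dark upward bars exceed the pale ones in all 17 stimulations, from depleted zymosan (6 of 58) to PL (30 of 58).

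In either direction, tested peaks called were 20.5% for P, 22.3% for L, 10.7% for H, 27.9% for S, 23.3% for cG, 5.91% for Z, 27.3% for PL, 26.3% for PH, 21.8% for LH. They were 37.1% for PScG, 32.9% for PcG, 33.4% for PS, 32.3% for ZScG, 29.7% for PLH, 28.3% for ZS, 27.7% for ScG and 21.6% for ZcG. Counts of members leaned on the first control library. Without it, members called fell from 28 to 15 for L, from 16 to 7 for H, from 22 to 14 for S, from 21 to 11 for cG, from 6 to 2 for Z and from 37 to 23 for PL. They fell from 24 to 14 for PH, from 23 to 12 for LH, from 29 to 18 for ScG, from 34 to 21 for ZS, from 22 to 12 for ZcG and from 36 to 23 for PLH. Without the first HMW library H had 10. Scaling by total counts in place of TMM moved the median log2 change of all peaks by 0.19 to 0.42 in the 13 stimulations other than Z, ZcG, ScG and ZScG, and turned the split of higher against lower members toward higher: 18 and 2 for H, 25 and 2 for S, 24 and 2 for cG, 35 and 0 for PL, 34 and 2 for PS, 38 and 1 for PcG, 37 and 1 for PLH and 37 and 3 for PScG. Within the 5 groups of high mitochondrial share, members called were 6 for Z, 24 for ScG, 20 for ZcG and 32 for ZScG. These counts have no background beside them, since the share of all tested peaks called in that fit is not given here.

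At the lower end of Nos2, a peak centred at -0.03 kb (78920299 to 78921213) opened under 16 of 17 stimulations. Control libraries held 1.31 and 3.86 CPM, so that the level in the second was close to that of the lower depleted zymosan library (3.15 CPM, the other at 6.17). PAM libraries held 7.10 and 9.75 CPM, LPS libraries 13.2 and 13.1, HMW libraries 6.80 and 6.72, SeV libraries 8.90 and 11.4, and 3',3'-cGAMP libraries 9.07 and 10.0. Every stimulated library except that 1 of depleted zymosan was above both controls. The highest groups were PLH with 14.3 and 15.1 CPM and PScG with 14.0 and 15.2. The log2 fold change was 2.31 ± 0.25 (SE, n = 2 a group) for LPS, with an edgeR adjusted p of 2.06e-14, and 1.67 ± 0.27 for PAM (edgeR adjusted p = 1.14e-07). Depleted zymosan gave 0.78 ± 0.31, which was not called (edgeR adjusted p = 0.123). Leaving out the first control library lost the call for HMW and left the other 15 between 1.09 and 1.92, while leaving out the second put the 16 calls between 2.36 and 3.47 and added depleted zymosan.

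Just outside the gene, the peak at -0.93 kb was nearly closed at rest, with 0.00 and 0.39 CPM in control, and was called in 14 stimulations. PScG libraries held 3.14 and 3.06 CPM, PS libraries 2.95 and 2.71, LPS libraries 1.63 and 1.67 and PAM libraries 0.46 and 0.58. Log2 fold changes ran from 2.32 for HMW to 3.87 ± 0.66 for PScG (edgeR adjusted p = 3.28e-07), and PAM was not called (1.31 ± 0.85, edgeR adjusted p = 0.293). With the first control library left out 7 of the 14 calls remained, with changes of 2.12 to 2.98, and with the second left out, which leaves a control of 0 counts, all 14 remained. The farthest peak on this side, at -11.94 kb, had 0 counts in both control libraries and 36 in the 2 LPS libraries together. Against a floor of 3 counts over the control group it was at least 7.16-fold higher with LPS, at least 9.08-fold higher with SeV and at least 10.2-fold higher with ZcG. The 3 remaining peaks on this side, at -11.51, -7.56 and -4.59 kb, were each called with LPS and with SeV and not with PAM.

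The upper end of Nos2 behaved differently from the lower one. A 4315-bp peak centred at 40.66 kb (78959292 to 78963606), which also overlaps Lgals9, the gene of the lectin galectin-9, had the highest mean level of the locus over all libraries. It held 2.84 and 2.22 CPM in control and 2.98 and 2.60 with PAM, ranges that overlap. LPS libraries rose to 25.7 and 17.7 CPM, a log2 fold change of 3.10 ± 0.23 (edgeR adjusted p = 4e-25). PL libraries were higher again at 27.4 and 35.5 CPM, with 3.63 ± 0.23 (edgeR adjusted p = 1.91e-32). HMW libraries held 10.9 and 8.10 CPM (1.93 ± 0.26) and 3',3'-cGAMP libraries 8.99 and 5.16 (1.48 ± 0.27), whereas SeV libraries held 4.12 and 4.18 (0.72 ± 0.28). SeV was called with an edgeR adjusted p of 0.0423, a call lost without any 1 of its own or the control libraries. PAM (0.15 ± 0.31) and depleted zymosan (0.74 ± 0.31) were not called. The other 14 calls remained with any 1 library left out.

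The 5 Nos2 peaks between 30.57 and 37.49 kb, inside the upper part of the gene, rose with LPS and were not called with PAM. At 37.49 kb control libraries held 0.55 and 0.58 CPM, PAM libraries 0.61 and 0.79, LPS libraries 6.22 and 2.64, PL libraries 6.53 and 8.97 and LH libraries 5.88 and 6.74. Both PAM libraries were above both controls, by a difference that was not called (0.32 ± 0.60), and PL gave 3.75 ± 0.44 (edgeR adjusted p = 4.24e-13). At 34.40 kb control libraries held 0.00 and 0.39 CPM against 2.87 and 3.57 in PL (3.92 ± 0.75, edgeR adjusted p = 7.86e-06), and SeV libraries held 0.07 and 0.31. Calls in PL and PLH at that peak remained with any 1 library left out, and the other 5 of its 7 calls did not. The peak at 30.57 kb had 2 counts over both controls and 78 over both PL libraries, a ratio of 32.1 with an exact 95% counting interval of 8.58 to 269.

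PAM alone was called at only 3 Nos2 peaks: at -0.03 kb, at 29.68 kb (1.80 ± 0.33, edgeR adjusted p = 4.29e-06) and at 52.82 kb (1.80 ± 0.24, edgeR adjusted p = 2e-10). The last of these lies beyond the gene within Lgals9 and was the one Nos2 peak called higher in all 17 stimulations, from 0.96 with HMW to 2.15 with PScG, where 1.03% of all tested peaks were higher in all 17. The single Nos2 peak never called, at 2.86 kb, had 0 and 5 counts in control. Summed over the 22 peaks, the Nos2 locus held 20.9 and 26.7 CPM in control, 38.9 and 48.4 with PAM, 114 and 80.4 with LPS, and 122 and 141 with PL, the highest group. This sum includes the peaks at 40.66, 43.80 and 52.82 kb, which overlap Lgals9. At 52.82 kb alone, control libraries held 2.62 and 4.05 CPM and PAM libraries 11.67 and 11.85.

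**Figure D2:**
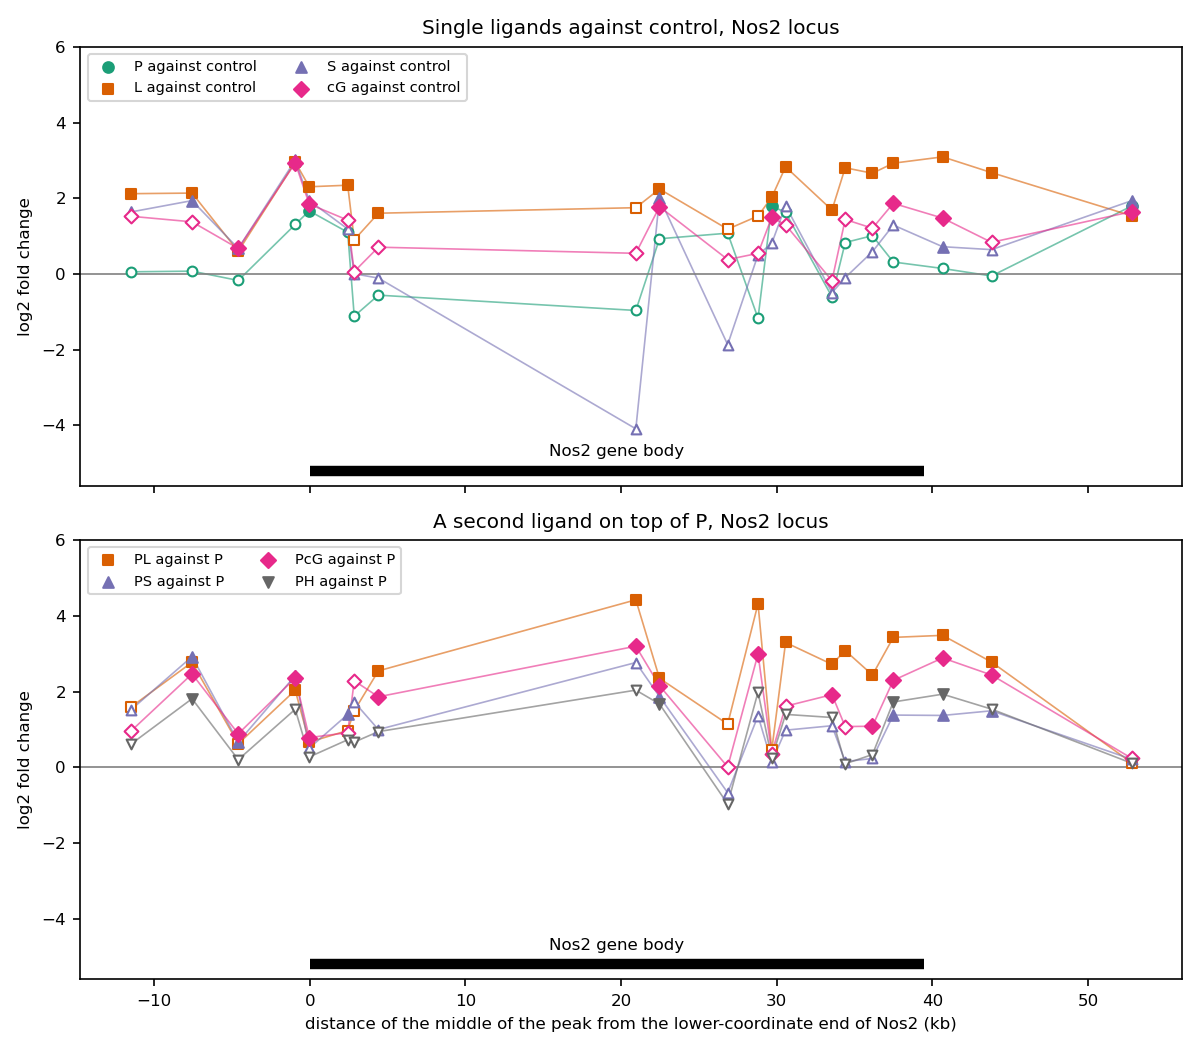
Log2 fold change of 21 Nos2 peaks by the distance of their middle from the lower-coordinate end of the gene, in kb, with filled symbols for called peaks and open symbols for the rest. The peak at -11.94 kb is left out for its 0 control counts. Above, P, L, S and cG are set against control, and at the 7 peaks between 30.57 and 43.80 kb L is filled throughout, P nowhere, S at 40.66 kb and cG at 37.49 and 40.66 kb. Below, PL, PS, PcG and PH are set against P, and at 40.66 kb PL (3.48) lies above the other 3.

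Single ligands were also tested directly against each other. LPS exceeded PAM at 15 of 22 Nos2 peaks, and 20 of the 58 members differed between them in either direction (5.87% of tested peaks higher with PAM, 5.19% higher with LPS). The smallest adjusted p was at 40.66 kb, where PAM was lower than LPS by 2.95 ± 0.22 on the log2 scale (edgeR adjusted p = 6.9e-26). Against SeV, LPS was higher at 10 Nos2 peaks, all at 4.41 kb or beyond, and lower at 0 of them (18 members in all, background 4.8% higher and 5.05% lower). PAM was lower than SeV at 6 Nos2 peaks, those at -11.94, -11.51, -7.56, -4.59, -0.93 and 22.47 kb, and higher at 26.85 and 29.68 kb (20 members in all, background 11.6% lower and 12.9% higher). The call at 26.85 kb rests on few counts, 1 and 14 in the PAM libraries against 0 and 2 in the SeV libraries. Members called for PAM against LPS fell to 7 without the first PAM library, for LPS against SeV to 5 without the first LPS library, and for PAM against SeV to 11 without the second SeV library. SeV against 3',3'-cGAMP had 0 members called by edgeR and 0 by DESeq2 (0.729% of tested peaks higher with SeV and 0.22% lower), with 9 at an unadjusted p under 0.05 and 1 called when the second 3',3'-cGAMP library was left out.

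**Figure D3:**
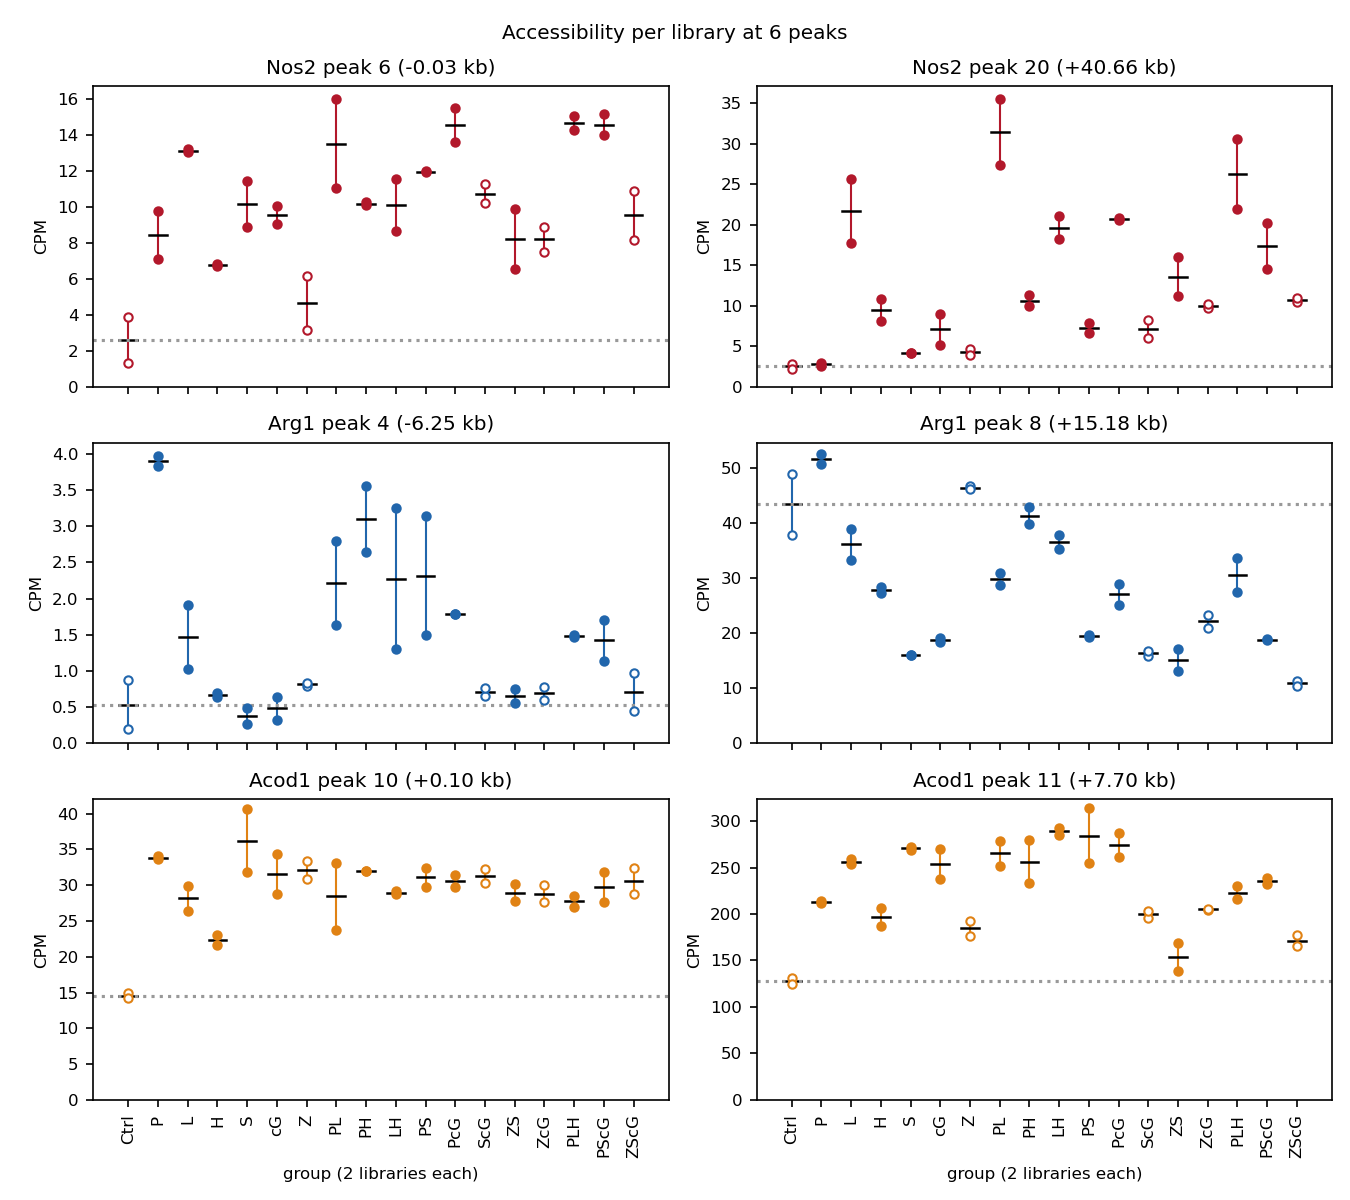
CPM in each library at 6 peaks over the 18 groups, with a black bar at each group mean, a dotted line at the control mean and open circles for the 5 groups with a high mitochondrial share. Both Acod1 peaks lie above control in every stimulation, Nos2 at 40.66 kb is highest in PL, and Arg1 at 15.18 kb falls from 48.95 and 37.8 CPM in control to 11.3 and 10.5 in ZScG.

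Ass1, whose enzyme feeds citrulline back into arginine, changed little at its start. The start peak at 0.25 kb held 14.8 and 15.2 CPM in control and between 12.7 and 25.2 CPM in the other libraries. It was called with LPS (25.2 and 21.0 CPM, 0.62 ± 0.15, edgeR adjusted p = 0.00103), with 3',3'-cGAMP (0.41 ± 0.16), with ZS (0.49 ± 0.16) and with ZcG (0.49 ± 0.16). Each of these 4 calls was lost on leaving out some library, and total-count scaling added 9 more. PL libraries held 14.1 and 15.7 CPM, and PL was lower than LPS alone by 0.63 ± 0.15 (edgeR adjusted p = 0.0096). Inside the gene, the peak at 2.60 kb held 2.40 and 1.54 CPM in control and 4.58 and 8.04 in PScG (1.70 ± 0.35, edgeR adjusted p = 2.23e-05). It was also called in PcG, ZS, PLH and ZScG, calls that were lost without the second control library. The peak at 12.78 kb was called in ZS and ZScG, and neither call remained without the first control library. That at 62.90 kb was called in 8 stimulations, of which 0 remained without the second.

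Arg1, the cytosolic arginase, lost accessibility above its upper end when SeV or 3',3'-cGAMP was present. The most accessible peak of the locus, at 15.18 kb (24929905 to 24930867, over the noncoding genes Gm40616 and Gm36228), held 48.95 and 37.8 CPM in control. PAM libraries held 50.7 and 52.5 CPM and depleted zymosan libraries 46.7 and 46.2, neither of them called against control. SeV libraries held 16.1 and 16.1 CPM and 3',3'-cGAMP libraries 18.3 and 19.2, both under either control. The log2 fold change was -1.43 ± 0.13 with SeV (edgeR adjusted p = 2.16e-20), -1.21 ± 0.13 with 3',3'-cGAMP (edgeR adjusted p = 2.2e-15) and -1.99 ± 0.15 with ZScG (edgeR adjusted p = 2.92e-27). The summed level of the 2 neutrophil markers with a start peak was also highest in PAM (47.8 CPM on average) and lowest in ZScG (20.2), with 41.3 and 31.3 in control, and its part in this result was not tested. The peak fell in 12 stimulations, which include every one that holds SeV or 3',3'-cGAMP. Those in HMW, PL and PLH (-0.63, -0.54 and -0.51) were lost without the first control library, and total-count scaling lost these 3 and PcG, kept the other 8 from -1.91 to -0.74 and called PAM higher (0.58). Set directly against each other, PAM was higher than SeV at this peak by 1.68 ± 0.12 (edgeR adjusted p = 6.2e-27).

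Both neighbouring peaks were called lower too. The peak at 16.48 kb, at 13.4 and 14.6 CPM in control, was called lower in 12 stimulations, from -0.70 in PL to -1.15 in ZScG, of which 7 remained with total-count scaling and 8 without the second control library. The peak at the upper gene end, at 12.72 kb, held 11.1 and 9.65 CPM in control and 4.46 and 5.03 in ScG (-1.13 ± 0.25, edgeR adjusted p = 0.000113). It was called in 8 stimulations, of which 3 remained under total-count scaling and 4 without the first control library. On the other side, within Med23, a subunit gene of the Mediator complex, the peak at -12.83 kb was called lower in 12 stimulations, of which 3 remained without the first control library (10.7 CPM there against 6.75 in the second).

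Within Med23, 2 peaks were called higher with PAM, at -11.41 kb (0.88) and at -6.25 kb. At the latter, control libraries held 0.87 and 0.19 CPM and PAM libraries 3.97 and 3.83. The log2 fold change was 2.89 ± 0.56 (edgeR adjusted p = 1.57e-05). It was called too in PL, PH, LH, PS, PcG and PLH, and 2 of the 7 calls, in P and PH, remained without the second control library. SeV libraries held 0.26 and 0.49 CPM, and PAM exceeded SeV by 3.33 ± 0.54 (edgeR adjusted p = 1.2e-07).

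Arg2, the mitochondrial arginase, opened modestly at its lower end. The peak at 0.04 kb held 2.95 and 3.47 CPM in control and was above both in both libraries of all 17 stimulations. It was called in none of the 6 single ligands and in all 8 pairs and 3 triplets, most in ZS (9.14 and 7.19 CPM, 1.33 ± 0.29, edgeR adjusted p = 8.64e-05). Levels of single ligands and combinations overlapped all the same. Means were 5.73 CPM for depleted zymosan and 5.57 for HMW, against 5.43 for LH and 5.36 for PLH. Single ligands gave 0.53 to 0.83 with edgeR adjusted p of 0.0637 to 0.189, total-count scaling called 5 of them, and without the first control library ZS alone remained. The peak at 1.45 kb held 10.3 and 10.0 CPM in control and 17.3 and 19.1 with PAM (0.85 ± 0.17, edgeR adjusted p = 4.58e-05), and was called in 9 stimulations, of which 6 remained without the first control library and 4 without the second. Farther up, within Vti1b, the peak at 37.76 kb had 3 counts over both controls and 70 over both SeV libraries, a ratio of 14.4 with an exact 95% counting interval of 4.74 to 71.7. The start peak of Vti1b, a vesicle fusion gene, at 41.53 kb was the most accessible of the locus with 40.5 to 56.2 CPM in all libraries and was called in 0 of 17 stimulations by edgeR, while total-count scaling called it higher in 7.

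Acod1, the itaconate-producing enzyme, was open before stimulation, and its start and gene body peaks opened further under every one. The start peak at 0.10 kb (103046235 to 103047982), which holds the promoter printed above, had 15.0 and 14.2 CPM in control. Depleted zymosan libraries held 33.3 and 30.8 CPM, PAM libraries 33.7 and 34.0, SeV libraries 40.7 and 31.8, LPS libraries 26.4 and 29.9 and HMW libraries 23.1 and 21.6. Both libraries of all 17 stimulations were above both controls, and the pairs and triplets (23.7 to 33.2 CPM) lay within the range of the single ligands. The change ran from 0.62 ± 0.14 with HMW (edgeR adjusted p = 0.000752) to 1.31 ± 0.13 with SeV (edgeR adjusted p = 2.01e-16), and all 17 calls remained with any 1 library left out. HMW was lower than SeV by 0.69 ± 0.12 (edgeR adjusted p = 7.6e-06). A 13361-bp peak over the rest of the gene, at 7.70 kb, held 131.2 and 124.7 CPM in control and rose in all 17 stimulations too, from 169.3 and 138.5 CPM in ZS (0.27 ± 0.08, edgeR adjusted p = 0.0078) to 285.5 and 292.8 in LH (1.18 ± 0.08, edgeR adjusted p = 1.66e-29). The call in ZS was lost without the second control library or the first ZS library.

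Distal Acod1 peaks differed between the ligands. At -17.46 kb control libraries held 8.85 and 13.1 CPM, SeV libraries 23.8 and 23.9 and 3',3'-cGAMP libraries 20.1 and 22.9, whereas LPS libraries held 14.6 and 12.0. SeV gave 1.11 ± 0.16 (edgeR adjusted p = 6.38e-09) and LPS 0.26 ± 0.17 (edgeR adjusted p = 0.292), and LPS was lower than SeV by 0.85 ± 0.15 (edgeR adjusted p = 5.9e-06). The peak was called in 12 stimulations, all those with SeV or 3',3'-cGAMP and also PL, PH and PLH, and 8 of the calls remained with any 1 library left out, PH (21.0 and 18.1 CPM) among them. At -7.47 kb control libraries held 1.42 and 1.64 CPM and PAM libraries 5.49 and 5.06 (1.77 ± 0.38, edgeR adjusted p = 0.000123), and the peak was called in PAM, PL, PS, PcG, PLH and PScG, all of which hold PAM, while PH was not called (0.94). Of these 6, the calls in PAM and PS remained with any 1 library left out. The peak at 18.68 kb was called in 12 stimulations, and none of these remained without the first control library (0.44 CPM, against 2.70 in the second). The peak at -9.70 kb was called lower in 12 stimulations, of which 5 remained under total-count scaling. Its log2 change was lowest in ZScG (-0.93 ± 0.14, edgeR adjusted p = 9.88e-09).

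**Figure D4:**
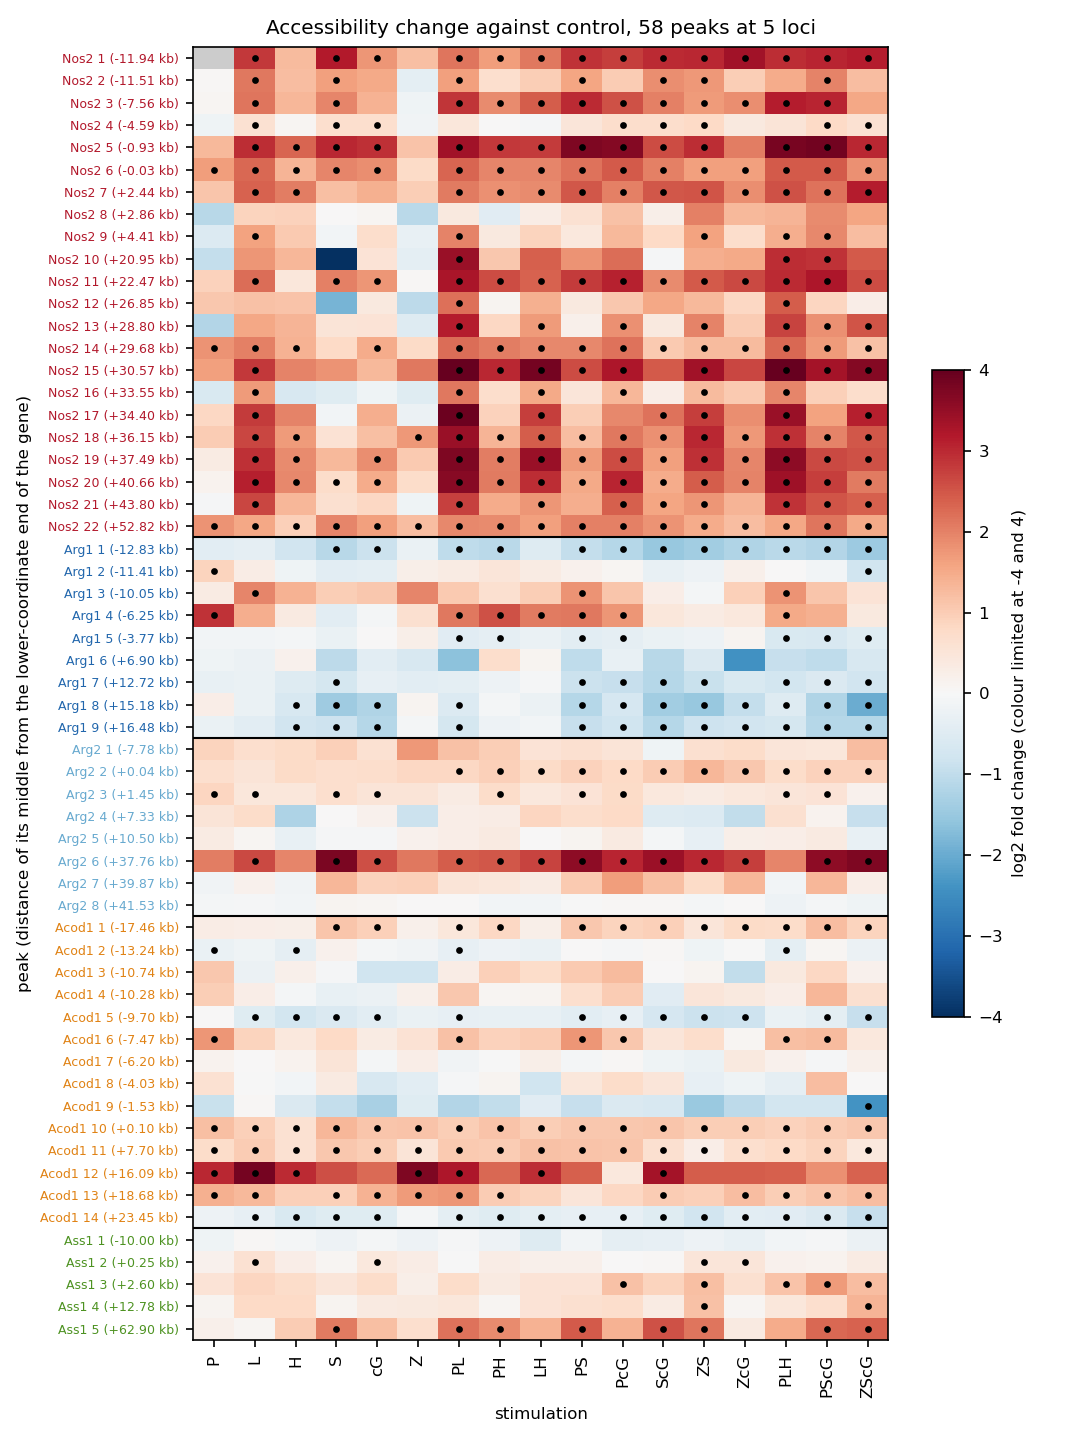
Log2 fold change against control of all 58 peaks (rows, with the kb distance from the lower gene end) in the 17 stimulations (columns), red for higher, blue for lower, with a dot where edgeR called the difference. The row at -11.94 kb shows lower bounds, grey where both groups are at the floor. Dots in Nos2 rows all mark higher values, dots in the Arg1 rows at -12.83, -3.77, 12.72, 15.18 and 16.48 kb all mark lower ones, and the Acod1 rows at 0.10 and 7.70 kb are dotted throughout.

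Adding a second ligand to PAM raised Nos2 accessibility. PL against P had 18 members called, 16 higher and 2 lower (4.17% and 4.29% of tested peaks), of which 14 were Nos2 peaks, all higher. At 40.66 kb the difference was 3.48 ± 0.21 (edgeR adjusted p = 3.5e-33), and at 37.49 kb 3.43 ± 0.40 (edgeR adjusted p = 2.5e-12). PcG against P had 16 higher and 4 lower (7.39% and 7.35%), with 2.89 ± 0.21 at Nos2 40.66 kb (edgeR adjusted p = 4.2e-25). PS against P had 14 higher and 5 lower (9.36% and 8.78%), with 1.37 ± 0.23 at the same peak (edgeR adjusted p = 1.2e-06) and -1.40 ± 0.12 at Arg1 15.18 kb (edgeR adjusted p = 2.8e-21). It had 9 called without the second PS library. PH against P had 6 higher (1.7%) and 0 lower, and 2 without the second PAM library. In the other direction PAM added less: PL against L had 2 higher and 1 lower (0.765% and 0.362%), and 0 without the first PL library.

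PAM nonetheless changed chromatin where the partner ligand was 3',3'-cGAMP or HMW. PcG against cG had 8 members higher (5.59%) and 0 lower, led by Nos2 40.66 kb, where PcG libraries held 20.8 and 20.5 CPM against 8.99 and 5.16 for 3',3'-cGAMP alone (1.56 ± 0.19, edgeR adjusted p = 1.4e-11). It had 2 called without the second PcG library. PS against S had 4 higher (2.44%), with 0.79 ± 0.21 at this peak, and 0 without the first SeV library. At Arg1 -6.25 kb, PAM raised accessibility over SeV by 2.55 ± 0.55 (edgeR adjusted p = 0.00077) and over HMW by 2.21 ± 0.51 (PH against H, 10 members higher at 5.28%, and 6 without the first HMW library). Fitted within the 13 groups of low mitochondrial share, members called were 19 for PL against P, 24 for PcG against P, 24 for PS against P and 10 for PcG against cG. The share of all tested peaks called in that fit is not given here, so these counts stand without a background.

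Depleted zymosan and SeV together opened upper Nos2 peaks beyond either alone. At 36.15 kb ZS exceeded SeV by 2.43 ± 0.36 (edgeR adjusted p = 2.6e-07) and depleted zymosan by 1.30 ± 0.36 (edgeR adjusted p = 0.0055). At 40.66 kb ZS libraries held 11.2 and 15.9 CPM, against 4.12 and 4.18 for SeV and 4.59 and 3.88 for depleted zymosan, and the pair exceeded SeV by 1.71 ± 0.21 (edgeR adjusted p = 1.5e-10). In the same libraries Acod1 at 7.70 kb was lower in ZS than in SeV by 0.82 ± 0.08 (edgeR adjusted p = 7.8e-16). ZS against S had 7 members higher and 3 lower (1.52% and 1.0%), with 3 in all without the first SeV library, and ZS against Z had 15 and 8 (6.63% and 8.53%), with 11 in all without the second depleted zymosan library. ZcG against cG had 1 member called (2.87% of tested peaks), ScG against S 1 (0.579%), and LH against L 0 by edgeR and by DESeq2, with 6 at an unadjusted p under 0.05 (0.0251% of tested peaks higher and 0.0393% lower).

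A pair was also set against the sum of its single-ligand log2 changes, so that a negative value means less than additive on that scale. The Acod1 start peak was less than additive in all 8 pairs, from -0.58 ± 0.18 in LH (edgeR adjusted p = 0.043) to -1.46 ± 0.19 in ZS (edgeR adjusted p = 4.4e-10). Acod1 at 7.70 kb was so in 7, most in ScG (-1.43 ± 0.11, edgeR adjusted p = 3.3e-23). The lower Nos2 end at -0.03 kb was called in PL, LH, PS and ScG (-1.44 to -1.77), and Nos2 at 52.82 kb in 6 pairs. Members called above and below additivity were 0 and 9 for PL (2.57% and 4.18% of tested peaks), 4 and 9 for LH (2.26% and 2.62%), 0 and 6 for PS (1.68% and 2.9%) and 1 and 5 for PcG (1.09% and 2.17%). They were 2 and 11 for ScG (6.92% and 7.52%), 0 and 6 for ZS (0.826% and 2.6%), 0 and 4 for ZcG (0.753% and 1.74%) and 0 and 1 for PH (0.471% and 1.08%).

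One Nos2 peak went the other way. At 40.66 kb PcG exceeded the sum of PAM and 3',3'-cGAMP by 1.41 ± 0.37 (edgeR adjusted p = 0.011), while LH fell short of its sum by 2.06 ± 0.31 (edgeR adjusted p = 3.3e-07) and PL was not called. Peaks that closed also showed positive values, as at Arg1 15.18 kb in ScG (1.23 ± 0.19, edgeR adjusted p = 8e-08), where the pair held 15.9 and 16.8 CPM and SeV alone 16.1 and 16.1. Each interaction uses the control libraries, and without the first of them members called were 5 in LH (13 with it), 2 in PcG (6), 7 in ScG (13) and 3 in ZS (6). Other libraries mattered too. Without the first LPS library PL had 5 (9) and LH 6, and without the second 3',3'-cGAMP library ZcG had 2 (4) and PcG 3. LH had 6 to 8 without the second LH library or either HMW library, and ZS had 3 without the second SeV, the second Z or the first ZS library. The 1 call in PH was lost without the first control, the second PAM, the first HMW or the first PH library.

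**Figure D5:**
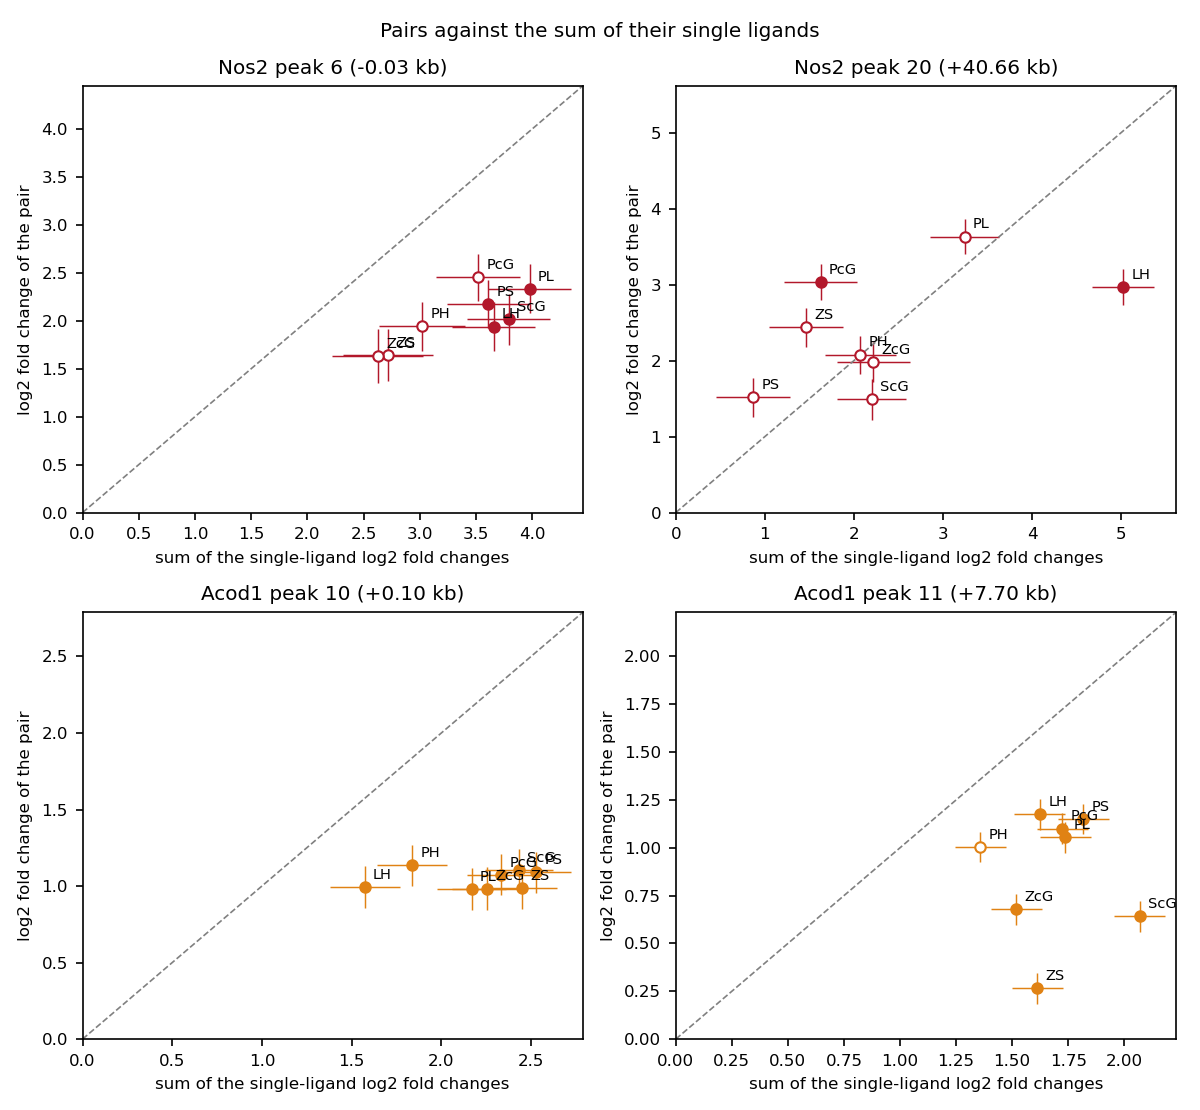
Log2 fold change of each pair against control (vertical) by the sum of the changes of its 2 single ligands (horizontal), with SE bars, the dashed line at equality and filled points where the interaction was called. Pairs at Acod1 and at Nos2 -0.03 kb lie below the line, and PcG at Nos2 40.66 kb lies above it.

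The last ligand of a triplet changed few members. PLH had 5 peaks higher than PH (0.158% of tested peaks), all at Nos2 between 28.80 and 40.66 kb, with the smallest adjusted p at 40.66 kb (1.30 ± 0.17, edgeR adjusted p = 3.1e-07). It had 1 to 3 members called when any 1 of the 4 libraries was left out. Against PL it had 0 by edgeR and by DESeq2, with 3 at an unadjusted p under 0.05 (0.000837% higher and 0.0% lower), and against LH 1 (0.546% of tested peaks), lower at Acod1 7.70 kb. PScG exceeded PS at Nos2 40.66 kb by 1.26 ± 0.18 (edgeR adjusted p = 9.3e-07) and ScG by 1.29 ± 0.20 (edgeR adjusted p = 9.8e-07), with 2 members called in each (0.602% and 4.53% of tested peaks). ZScG was lower than ZcG at Arg1 15.18 kb by 1.02 ± 0.16 (edgeR adjusted p = 3.8e-06), 1 of 4 members called (2.79% of tested peaks). Against ZS, ZScG had 0 members called by edgeR and by DESeq2, with 2 at an unadjusted p under 0.05. Of tested peaks, 0.0142% were higher and 0.0444% lower in that contrast. ZScG against ScG had 3 members called (0.772% of tested peaks), and PScG against PcG had 1 (0.412%). Both of these counts fell when any 1 of the libraries compared was left out. Leaving out any 1 of the 4 libraries brought ZScG against ZcG to 2 members. PScG had 1 against PS without the first PS or the second PScG library, and 1 against ScG without either PScG library. The 1 call of PLH against LH was lost without either LH library or the second PLH library. The test of the triplet against its pairs and singles together called 4 members in PScG (1.03% of tested peaks higher and 0.976% lower). In ZScG it called 3 (0.974% and 0.917%). All 7 were upward and at Acod1 or at Nos2 52.82 kb. Upward is relative to the pairs and singles combined, so the triplet need not exceed its pairs. At the Acod1 start PScG averaged 29.69 CPM, against 31.09 in PS, 30.61 in PcG and 31.27 in ScG. At Nos2 52.82 kb PScG averaged 14.97 CPM, above PS (13.6), PcG (13.79) and ScG (11.74). In PLH the test called 0 members (0.511% and 0.273%), with 1 by DESeq2 and 14 at an unadjusted p under 0.05. PScG had 2 without the first control or the second 3',3'-cGAMP library. ZScG had 6 without the second control library, and 2 without the first control or the second 3',3'-cGAMP library.

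Genes outside these loci whose start peaks resembled a member most over the 18 group means of log2 CPM were named by Pearson's r among 13046 genes, as a description. Groups share ligands, and like shapes can follow depth or composition. Where a gene's start was not known, its peak was taken within 1 kb of either end, so some may lie at the far end. Il6, the interleukin 6 gene (r = 0.967), Cd40, a co-stimulatory receptor (0.953), and Apol6 (0.917) were most like Nos2 at -0.03 kb. Vgf (0.859), Serpina5 (0.824) and Fscn1, the gene of the actin-bundling protein fascin (0.797), were most like Nos2 at 40.66 kb. Orm1, an acute phase protein gene (0.882), Nt5c1a (0.815) and Mfsd7a (0.806) were most like the Acod1 start. Hacd4 (0.847), Plcg2 (0.846) and Ms4a3 (0.803) came nearest to Arg1 at 12.72 kb, and Csf2, the GM-CSF gene (0.852), Rasl10a (0.829) and Cdr2l (0.825) to Arg2 at 0.04 kb. The Ass1 start was nearest to a peak shared by Abca17 and Abca3 (0.759) and to Rusc2 (0.722).

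Among 20 of 23 other genes of arginine, polyamine and nitric oxide metabolism with a peak within 1 kb of the start, or of either end where the start was not known, the arginine transporter gene Slc7a2 was higher in 16 of 17 stimulations (median log2 change 0.56). Genes of tetrahydrobiopterin metabolism, the cofactor of nitric oxide synthase, were split. Qdpr, which recycles the cofactor, was lower in 16 (-0.78), Spr, which makes it, lower in 15 (-0.59), and Gch1, the entry enzyme, higher in 5 (0.23). Pts was lower in 5 (-0.20) and Gchfr higher in 2 (0.25). Of the polyamine genes Sat1 was lower in 13 (-0.38) and Sms in 9 (-0.41). With PAM, 1 gene of the list was higher and 5 lower, where 3.59% of 12231 start peaks were higher and 25.6% lower. With LPS it was 2 and 4 (7.21% and 25.0%), and with SeV 3 and 3 (8.24% and 21.1%).

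All 20 genes of the itaconate and citric acid cycle list had such a peak. Nfkbiz, the gene of the nuclear inhibitor of NF-kappaB zeta, was higher in all 17 stimulations (median 0.66). Suclg2, a subunit of succinyl-CoA ligase, was lower in 14 (-0.90), Idh1, the cytosolic isocitrate dehydrogenase, in all 17 (-0.69), its mitochondrial relative Idh2 in 13 (-0.65), and Clybl, of the itaconate breakdown route, in 15 (-0.59). Of the succinate dehydrogenase genes, Sdhd was lower in 6 and Sdhc higher in 2. With PAM, 1 gene was higher and 9 lower, with LPS 1 and 6, and with SeV 1 and 6, against the same background of start peaks. The median start peak itself changed by -0.21 with PAM, -0.13 with LPS and -0.08 with SeV. Over the 17 stimulations, 1.76% (Z) to 33.5% (PLH) of start peaks were lower and 1.9% (Z) to 14.3% (ZScG) higher. Total-count scaling was not examined for the genes of either list. Outside Z, ZcG, ScG and ZScG it moved the median of all peaks by 0.195 (ZS) to 0.423 (L).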

How the data were processed

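ATAC-seq was measured in 36 libraries, 2 for each of 18 groups. The authors deposited a table of whole-number read counts per peak, on the mm10 build per the submitters' processing notes, which also name Bowtie2 2.2.9, MACS2 1.4, bedtools and featureCounts. How these were set is not given in the sources used here. The deposited counts are for 1 peak set shared by all libraries.

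Genes were placed with RefSeq tables of GRCm38.p6. The mitochondrial peak and 286 peaks of low count (filterByExpr, minimum 10) were left out. Counts were scaled by TMM and fitted with 1 coefficient per group in edgeR 4.0.16 (R 4.3.3, quasi-likelihood, 18 residual degrees of freedom), with Benjamini-Hochberg adjustment over all tested peaks within each of 68 contrasts and calls at an adjusted p under 0.05. CPM uses the TMM-scaled library sizes. Each SE is the size of the log2 change divided by the square root of the edgeR quasi-likelihood F statistic. It therefore draws on the spread over all groups in the fit, not on 2 libraries a group alone. The fit was tested on simulated data. Counting intervals are exact at 95%, floors are 3 counts, and both cover counting error only, since reads are not independent molecules. Same-numbered libraries of different groups did not deviate together (r -0.04 to 0.03 over 153 pairs of groups), so libraries were not paired by number in the main fit. Whether those of the same number shared a culture or batch is not given in the labels. Libraries of a group differed beyond sampling noise (chi-square per degree of freedom 2.08 to 3.31).

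Peaks described in full were, per gene, those at the start, the one with the highest mean CPM, and up to 3 others of at least 1 CPM on average with the largest called changes. Because the gene table has no strand, both ends of a gene were used where its start was not known. The same holds for the start peaks of cell type markers and for the background of start peaks. Other member peaks named were chosen after their values were seen. The members and gene lists were chosen with earlier results of these data known. Alternatives were DESeq2 1.42.0, its size factors, total-count scaling, no filter, the mitochondrial peak kept, a replicate block, only the groups compared and each library left out. Thinning and fits within sets of mitochondrial share were added after seeing the data. Members not described singly count in the totals, and the values of 1 of these, at Acod1, are not reported here.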

Additional observations from a re-analysis of the deposited data

Results flagged for a closer look

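The effect of one ligand depended on the presence of another at some of the 58 peaks, by the test of the interaction itself (edgeR quasi-likelihood test, adjusted over all tested peaks). LH and ScG had 13 each, where 4.88% and 14.4% of tested peaks were called. PL had 9 (6.75%), each of PS, PcG and ZS had 6 (4.59%, 3.27% and 3.43%), ZcG had 4 (2.49%) and PH had 1 (1.55%). For the triplets it was 4 for PScG (2.0%) and 3 for ZScG (1.89%). The Acod1 start peak was among them in all 8 pairs and in both of these triplets. All of these tests share the 2 control libraries, and with total-count scaling the pairs had 96 such differences in all against 58.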

How the results depend on the processing

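No named result changed its call with the replicate block, under which members called against control were 442 over the 17 stimulations against 440, and 1 of 51 other contrast counts moved by over 1.5 times. Over the same stimulations the total was 501 with total-count scaling, 383 after thinning every library to 1 depth, 409 with DESeq2 and 390 with only the groups compared. Total-count scaling gave 19 calls for P (12 as reported), 96 pair interactions (58), 20 triplet interactions (7) and 32 differences of triplets from pairs (18), which thinning lowered to 9. Total-count scaling also turned Arg2 at 41.53 kb to 0.379 with LPS, 0.402 with PS and 0.289 with PScG. The cause was not tested. Leaving out 1 library gave 10 to 13 calls for P, 15 to 25 for L, 7 to 14 for H, 14 to 19 for S, 11 to 20 for cG, 2 to 6 for Z, 23 to 30 for PL, 14 to 20 for PH, 12 to 20 for LH, 22 to 26 for PS, 23 to 28 for PcG, 18 to 23 for ScG, 21 to 26 for ZS, 12 to 20 for ZcG, 23 to 30 for PLH, 25 to 32 for PScG and 27 to 29 for ZScG. A group left with 1 library is assumed to vary like the others. Of 1564 named results with a library left out, 217 lost their call, 23 gained one and 0 reversed. Peaks with under 1 CPM in control rest on few counts.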
